A study of Mus musculus with 672 samples.

Results

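The mesenchyme of the mouse pancreas at E13.25 (E marks days of embryonic development) is described here from 138 single cells, of 340 kept E13.25 cells and 601 kept cells in the whole series. Cells were chosen by measured values. Wells under 100000 gene reads, under 1500 detected genes or over 20% mitochondrial reads were dropped, and a remaining cell was a member when Col3a1 reached 300 CPM (reads of a gene per 1e6 gene reads of the cell) while Epcam and Upk3b each stayed under 30 CPM. Col3a1 encodes a chain of fibrillar collagen, Epcam an adhesion protein of epithelia, and Upk3b a membrane protein of mesothelium. The comparison cells are the other 202 kept E13.25 cells of the same plates. All cells came from C57BL/6 mouse embryos with no genetic change or treatment named. Pancreatic cells were stained with antibodies, sorted 1 to a well into 96-well plates, and sequenced with a full-length method without molecular identifiers. The E13.25 cells fill 4 plates, 1 for each numbered pancreas; the titles of plate 4 name a mouse 2 and those of plates 1 to 3 give no mouse number. The E15.25 cells fill 3 plates, from the tip part of bud 1, the tip part of bud 2 and the trunk part of bud 2, so 2 of those 3 plates share a bud number. The antibodies and gates are not given in the sources used here, so a share of cells on a plate is a share of sorted cells, not of the organ.

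Pancreatic mesenchyme is the connective tissue that surrounds and supplies the growing epithelial buds. It secretes matrix and growth factors such as fibroblast growth factor 10, insulin-like growth factors and Wnt ligands, and epithelial progenitors depend on it to expand. In the mouse the mesenchyme around the dorsal bud is continuous with that of the future spleen, which is marked by Tlx1 and Nkx2-5, while Nkx3-2, Barx1 and Tcf21 are transcription factors of gut and visceral mesenchyme. A thin mesothelium covers the organ and shares several genes with the mesenchyme under it.

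Summed over the members, the plates held between 18098019 and 90566830 reads on genes. The median member had 7628 to 7900 genes with a read, according to plate, against 8585 to 9608 in the other cells. The median was lower in members in 4 of 4 plates (exact two-sided sign-flip test over plates, adjusted p = 0.25 over 4 measures; 4 plates cannot give an unadjusted p under 0.05). Reads per spike-in read were also lower in members in 4 of 4 plates, by a log2 ratio of -0.75 ± 0.37 (SD, n = 4 plates; adjusted p = 0.25 by the same exact test). Mitochondrial shares differed in no common direction, with means of 4.06% in both classes. On plate 1 the median other cell had 48.3% of its reads unaligned against 27.4% in members, a gap the other plates did not show.

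Members made up 51.1% of kept cells on plate 1 (45 of 88), 67.5% on plate 2 (54 of 80), 23.3% on plate 3 (20 of 86) and 22.1% on plate 4 (19 of 86). Over the 4 plates the share was 40.6% (95% exact binomial interval 35.3 to 46%, counting error only). Plates 1 and 2 thus held larger shares of members than plates 3 and 4. For Col3a1 and Upk3b no cell that met the other limits lay close to the limit, whereas for Epcam cells lay close on both sides. The lowest members had 691, 820 and 961 CPM of Col3a1, while the highest cell under the limit that met the other limits had 97.6 CPM. The highest Epcam level among members was 27.6 CPM, and the nearest cell over that limit had 35.9 CPM. The highest Upk3b level among members was 5.42 CPM, and the nearest cell over that limit had 82.5 CPM. Of the other cells, 159 had Epcam at 30 CPM or more, 19 had Upk3b at 30 CPM or more, all of them with Col3a1 over 300 CPM, and 24 had neither; 17 of those 24 were on plate 4.

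**Figure D1:**
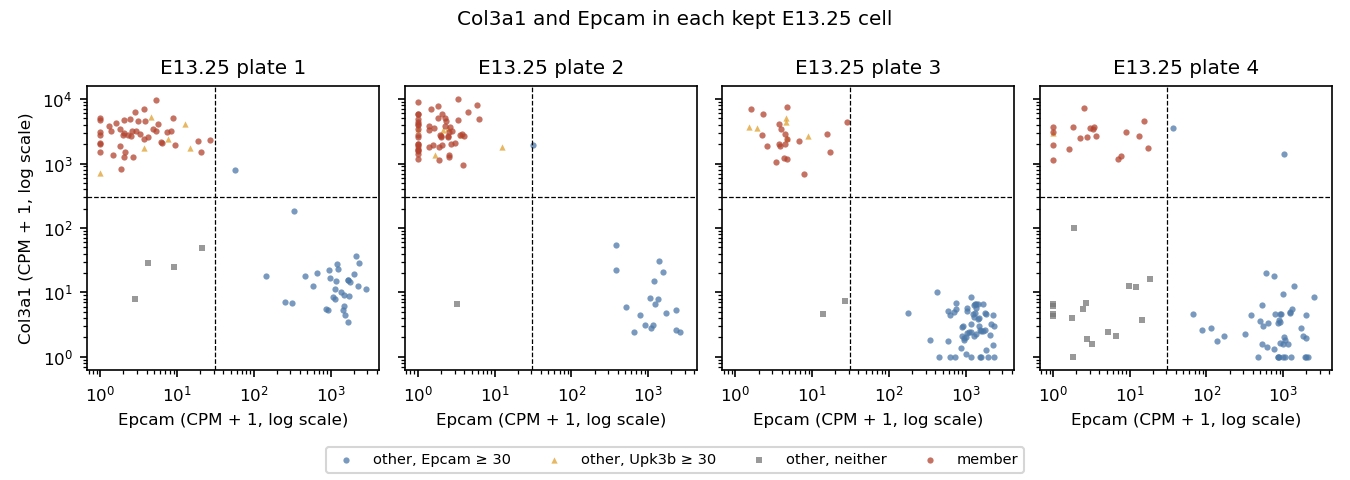
Each point is 1 kept E13.25 cell, with Epcam (x) and Col3a1 (y) in CPM + 1 on log axes and 1 panel per plate; dashed lines are the limits of 30 and 300 CPM. Members, from 691 CPM of Col3a1 upwards, lie apart from all but 4 of the Epcam cells, which also pass 300 CPM of Col3a1, and the cells with Upk3b lie among the members on these axes.

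The label was checked against 6 mesenchyme markers, of which Col3a1 was used by the rule. In members, Col1a1 was at or over 10 CPM in 98.6% of cells, Pdgfra, a receptor for platelet-derived growth factor, in 82.6%, Tcf21 in 64.5%, Barx1 in 50% and Nkx3-2 in 46.4%. At least 3 of these 5 genes reached 10 CPM in 112 of 138 members (81.2%) and in 2 of 202 other cells (0.990%). Markers of other cell types differed by list. Without Epcam, which the rule used, the 15 epithelial markers summed to 33.6 to 146 CPM in members by plate, against 8808 to 14017 CPM in the other cells, and Pdx1, Ptf1a, Nkx6-1 and Foxa2 reached 10 CPM in none of the 138 members. Low levels of some were still found: Cpa1, an acinar and progenitor carboxypeptidase, reached 10 CPM in 39.1% of members against 62.4% of other cells, and Spp1 in 33.3% against 72.8%. The 10 endothelial markers were low in both classes. They summed to 14.8, 22.2, 13.5 and 2.21 CPM in members of plates 1 to 4 and 15, 19.1, 11.8 and 9.44 CPM in the others, more in members on plates 2 and 3. By level per kilobase of exon, Plvap and Flt1 were the highest of them in members, at 1.32 and 0.486 CPM. Cldn5 and Emcn reached 10 CPM in no member. The 10 leukocyte markers summed to 33.3, 16.6, 0.801 and 50.3 CPM in members of plates 1 to 4 and 28.6, 4.18, 11.9 and 10.3 CPM in the others, more in members on all plates but plate 3. Of these, Ptprc, which defines leukocytes, reached 10 CPM in no member, Lyz2 in 11.6% and Laptm5 in 7.25%. The 10 markers of neural crest and neurons summed to 234, 166, 216 and 63.8 CPM in members and 354, 134, 239 and 225 CPM in the others. Sox10 and Ret reached 10 CPM in no member, whereas Ednrb, an endothelin receptor, did so in 34.8% of members against 1.98% of other cells. Without Upk3b, the 8 other measured mesothelial markers summed to 292, 322, 406 and 192 CPM in members and 493, 768, 379.6 and 145 CPM in the others, more in members on plates 3 and 4. Upk1b, Lrrn4 and Krt19 reached 10 CPM in no member, but Nkain4 did so in 64.5% and was at 97.2 to 242 CPM against 2.71 to 9.06 CPM, higher in members on all 4 plates, and Wt1, known in both mesothelium and mesenchyme, did so in 52.2%. Tlx1 and Nkx2-5, of splenic mesenchyme, summed to 64.2 to 74.2 CPM in members and 0.187 to 1.32 CPM in the others. Whether members with them belong to pancreas or spleen was not tested. The 10 endocrine markers summed to 3.72 to 10.1 CPM in members and 1066 to 2691 CPM in the others. The 8 erythroid markers summed to 13.4 to 298 CPM in members and 4478 to 95291 CPM in the others. The part of these other cell types in the results was not tested. A count of 0 among 138 cells allows a share of up to 2.64% (95% exact binomial limit).

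Members were then compared with the other E13.25 cells plate by plate, on the summed reads of each class, in log2((member CPM + 1)/(other CPM + 1)); values are the mean ± SD over the 4 plates. The same cells chose the members, so this is a description with no test. A gene is called higher or lower where the difference was at least 2-fold in the same direction in each plate. Of 13237 genes that reached 10 CPM, 748 were higher in members (5.65%) and 1127 were lower (8.51%); nothing is read from a list's share against these, since the rule used this contrast. Both counts need every plate, and with any 1 plate left out they were 906 to 929 higher and 1291 to 1396 lower.

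The largest difference was in Sparcl1, a secreted matrix glycoprotein, with 1025, 1038, 1130 and 919 CPM in members of plates 1 to 4 against 3.29, 1.53, 5.67 and 9.78 CPM in the other cells (7.60 ± 0.95 on the log2 scale). Syt6, a synaptotagmin of vesicle fusion, was second, at 209 to 555 CPM against 0.258 to 3 CPM (7.34 ± 1.08). Prrx1, a homeodomain factor of connective tissue, stood at 265, 253, 299.9 and 204 CPM against 1.38, 0.258, 0.221 and 1.86 CPM (7.14 ± 0.81). Pdgfra was at 364, 386, 250.2 and 164 CPM in members and 0.954, 0.553, 0.152 and 3.99 CPM in the others (7.08 ± 1.36). In Sparcl1, Prrx1 and Pdgfra the classes did not overlap on any plate, which the call requires of every called gene. Rgs5, a regulator of G-protein signalling known from pericytes, was at 329 to 489.6 CPM in members and 0.369 to 10.3 CPM elsewhere (7.07 ± 1.13). Col6a3, a collagen VI chain gene, followed (241 to 404 against 0.137 to 8.73 CPM), then the gelatinase gene Mmp2 (369.8 to 552 against 0.682 to 7.1 CPM). Lum, the proteoglycan lumican, varied most among these between plates, at 87.5, 275, 308 and 48.7 CPM, and was at 0.122 to 0.656 CPM in the other cells. Of the 25 genes named by rule, the others were the transcription factor genes Osr2, Hic1 and Nkx2-3 and the cofactor gene Ldb2, the protease genes Adam19 and Htra3, the matrix and adhesion genes Itga8, Frem1 and Col23a1, the receptor genes Eng and Lpar1, the neurokinin gene Tac2, the noncoding host transcript Dnm3os, and Lhfp, Rtl3, Slitrk5 and Nfam1. Their mean levels in members ran from 85.5 CPM (Eng) to 667 CPM (Lpar1), and their log2 differences from 5.88 ± 0.60 (Lpar1) to 6.65 ± 1.01 (Osr2).

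**Figure D2:**
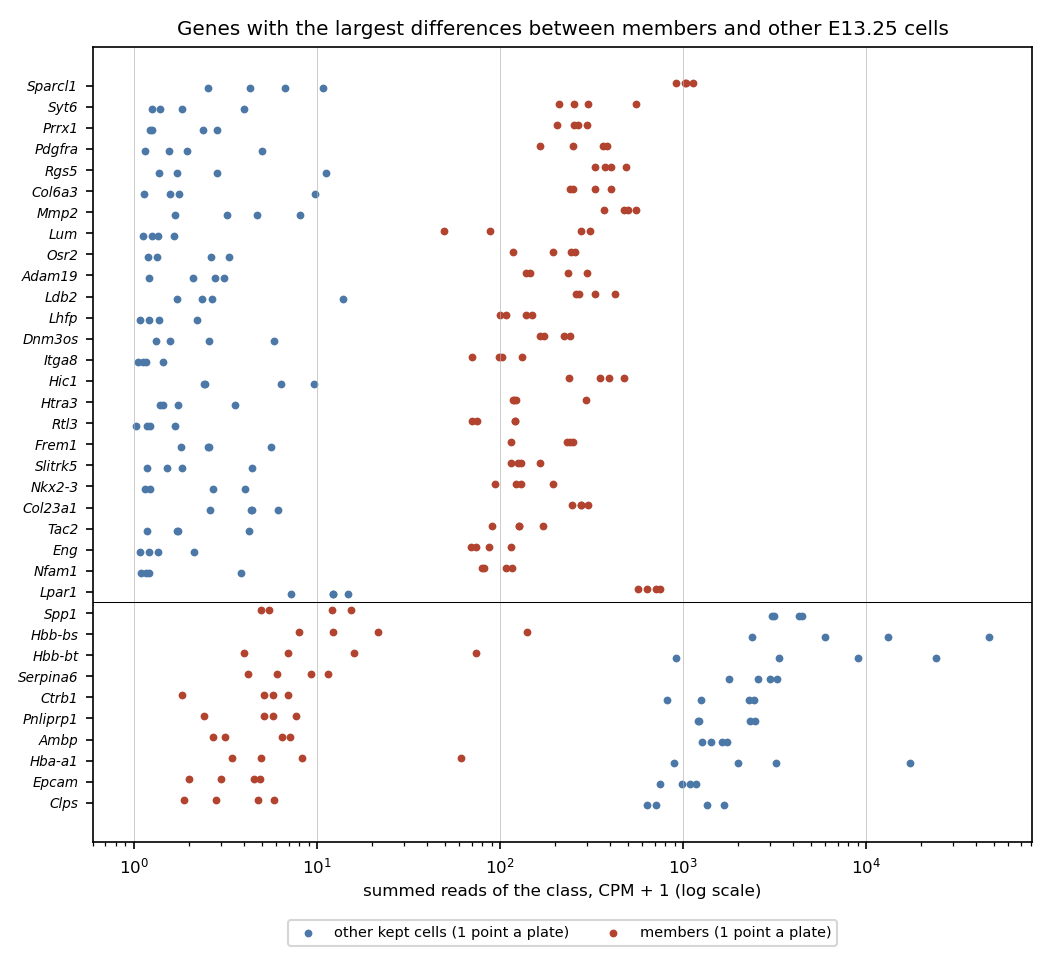
The 25 genes with the largest positive and the 10 with the largest negative differences, as CPM + 1 of the summed reads of each class (log x axis), 1 point a plate. Members and other cells do not overlap in any of the 35 genes. These were chosen for large differences in every plate and include the rule gene Epcam.

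The 10 named genes lower in members were of 3 kinds. Spp1, Serpina6, Ambp and Epcam (a rule gene) are known from epithelia or, for Serpina6 and Ambp, secreted plasma proteins. Spp1 (osteopontin) was at 3.95 to 14.4 CPM in members and 3055 to 4454 CPM in the other cells (-8.77 ± 0.79). Ctrb1, Pnliprp1 and Clps encode digestive proteins of acinar cells, and Ctrb1 was at 0.841 to 5.91 against 821 to 2444 CPM. The globin genes Hbb-bs, Hbb-bt and Hba-a1 were at 7.02 to 140.1, 2.98 to 73.3 and 2.44 to 60.6 CPM in members. In the other cells Hbb-bs stood at 5939.9, 13127, 2384 and 47206 CPM, highest on plate 4, and against the Epcam cells alone the 3 globin genes were not lower in members (log2 differences 0.23, 0.24 and 0.28). Beside Epcam, a rule gene whose level the selection fixed, all 15 epithelial markers and 10 of 11 measured digestive enzymes with at least 10 CPM were lower.

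Most collagen genes were higher in members, and a few were lower. Of 16 collagen genes, 10 were higher in members and 3 were lower, with a median log2 difference of 2.97 against -0.08 over all genes that reached the level. Col3a1, a rule gene, is 1 of the 10; without it 9 of 15 were higher, with a median of 2.95. Col1a1 was at 2227, 3989, 2867 and 2944 CPM in members and 213, 402, 344 and 92.3 CPM in the others (3.68 ± 0.88), and Col1a2, the partner chain of type I collagen, at 2326 to 3791 against 92.3 to 562 CPM (3.30 ± 0.95). Per kilobase of exon, with every annotated exon base of a gene counted, members held 458 ± 111 CPM per kb of Col1a1, 313 ± 36.8 of Col3a1, 222 ± 55.7 of Col1a2 and 119 ± 23.2 of Col6a1 (SD, n = 4 plates). These bases (6563 for Col1a1, 12426 for Col1a2) pool all transcripts of a gene and are not the length of 1 transcript. No order between genes is read from them. The 3 collagen VI genes had larger differences than Col1a1 and Col1a2: Col6a1 5.34 ± 0.99, Col6a2 5.34 ± 1.3 and Col6a3 7.0 ± 1.32. The 3 lower genes were Col2a1 (0.861 to 1.37 CPM in members, 260.1 to 381 in the others), Col9a1 (0.166 to 21 against 55.5 to 117) and Col18a1, a chain of epithelial and vascular basement membranes (4.53 to 30.8 against 281 to 531).

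Of 32 other matrix genes, 16 were higher in members and 1, Lamc1, was lower (median 1.84). Microfibril genes were among them: Fbn1 (fibrillin 1) was at 123 to 317 CPM against 5.35 to 32.6 CPM (4.06 ± 1.40), Emilin1 at 384 to 624 against 11.7 to 32 CPM (4.76 ± 0.85) and Mfap2 at 702 to 1275 against 68.4 to 229 CPM (2.71 ± 0.69). The collagen crosslinking genes Lox, Loxl1 and Loxl2 had differences of 3.46 ± 1.10, 3.48 ± 1.40 and 3.26 ± 0.17. Sparc was abundant in both classes, at 1937 to 2429 CPM in members and 808 to 2007 CPM in the others, and was not called. The basement membrane gene Lamc1 was at 37.6 to 110.4 CPM in members and 175 to 253 CPM in the others (-1.70 ± 0.48), while Lamb1, at -0.96 ± 0.58, was not called.

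**Figure D3:**
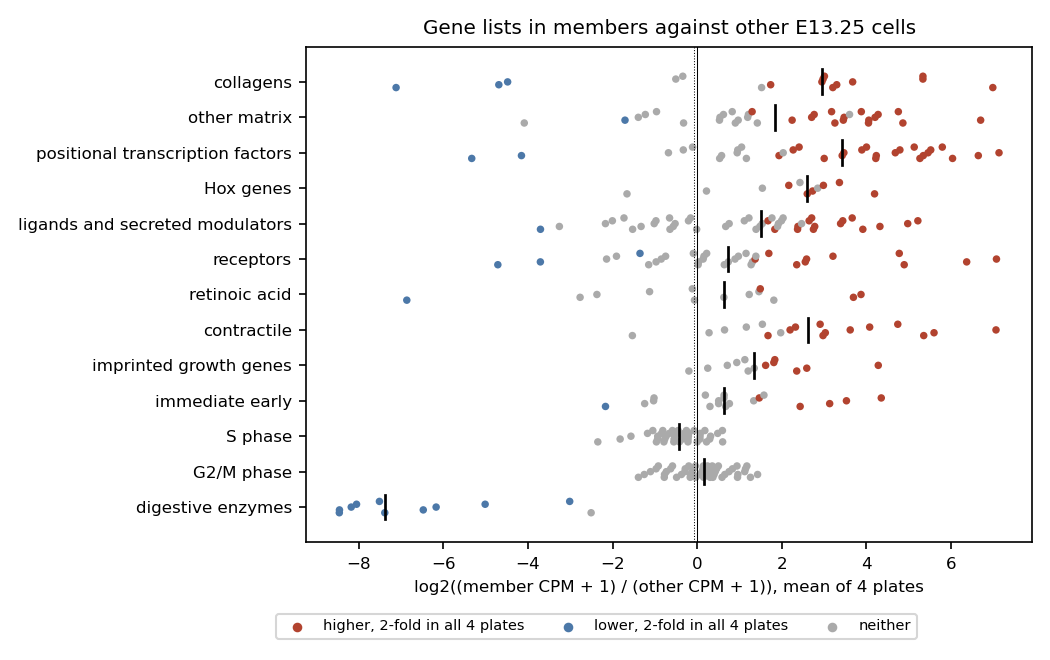
Each point is 1 listed gene that reached 10 CPM, at its mean log2 difference between members and other E13.25 cells over 4 plates; black bars are list medians and the dotted line is the median of all genes (-0.08). Positional transcription factors have a median of 3.43, and S-phase and G2/M genes, near 0, hold no called gene.

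Of 39 transcription factors with known roles in the position or identity of mesenchyme, 33 reached 10 CPM, 21 were higher in members and 2 were lower (median 3.43). Nkx3-2 was at 58.7, 55.5, 56.4 and 52.8 CPM in members and 0.153, 0.111, 0.0533 and 0.705 CPM in the others (5.53 ± 0.37), a narrow range over plates. Tcf21 was at 104, 97.1, 65.5 and 68.2 CPM against 0.817, 0.147, 2.89 and 0.535 CPM (5.46 ± 0.99). Barx1 was at 138, 93.7, 99.5 and 66.6 CPM against 58.1, 58.8, 18.2 and 3.65 CPM (2.04 ± 1.41) and was not 2-fold higher in every plate. The splenic factors Tlx1 and Nkx2-5 were both higher: Tlx1 was at 54.7, 44.8, 61.4 and 40.7 CPM against 0.119, 0.166, 0.0989 and 1.08 CPM (5.27 ± 0.67), and Nkx2-5 at 19.5, 19.5, 9.35 and 23.5 CPM against 0.0681, 0.0921, 0.0989 and 0.243 CPM (4.01 ± 0.52). Factors of mesenchymal state were high as well, with Snai2 at 166 to 522 CPM, Zeb1 at 209 to 284 CPM and Zeb2 at 211 to 249 CPM in members and at most 21.5 CPM in the other cells of any plate. The lower factors were Gata4 (0.177 to 0.42 against 33.4 to 77.1 CPM) and Gata6 (0.121 to 22.3 against 82.1 to 239.5 CPM), both known from pancreatic epithelium. Foxf1, a Hedgehog target of gut mesenchyme, was below the level, at 0.111 to 7.83 CPM in members. Of 39 Hox genes 11 reached 10 CPM and 6 were higher (Hoxa2, Hoxa3, Hoxa4, Hoxa5, Hoxb5 and Hoxb6), led by Hoxb5 at 58, 57.9, 55.2 and 63.2 CPM against 0.0729 to 12.8 CPM and Hoxa5 at 39.5 to 153 CPM against 0.425 to 17.5 CPM. Hoxa3 overlaps other genes over 27.1% of its exon bases, so its reads are less certain.

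Cell by cell, these factors divided the members differently. Meis1 reached 10 CPM in 98.6% of members, Prrx1 in 77.5% and Hand2, a factor of visceral mesoderm, in 73.2%. Tlx1 did so in 31.9% of members (44 cells, 95% exact binomial interval 24.2 to 40.4%) and in 28.9 to 35% on single plates, against 0.495% of other cells. Its level among the members that had it was a median of 134 CPM and at most 597 CPM, and the median over all members was 0. The summed Tlx1 level was thus carried by a minority of cells that was present on each plate. Nkx2-5 reached 10 CPM in 24.6% of members (10 to 31.6% by plate), Isl1 in 38.4% (31.1 to 55%) and Wt1 in 52.2% (46.7 to 57.4%). All 3 of Nkx3-2, Barx1 and Tcf21 were present together in 24 members (17.4%), 2 in 52, 1 in 46 and none in 16 (11.6%). Thinned to 100000 reads a cell, with 1 read counted as present, the shares were 31.9% for Tlx1, 48.6% for Nkx3-2, 53.6% for Barx1 and 66.7% for Tcf21. At full depth, with 1 read counted as present, they were 46.4%, 59.4%, 69.6% and 79%.

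**Figure D4:**
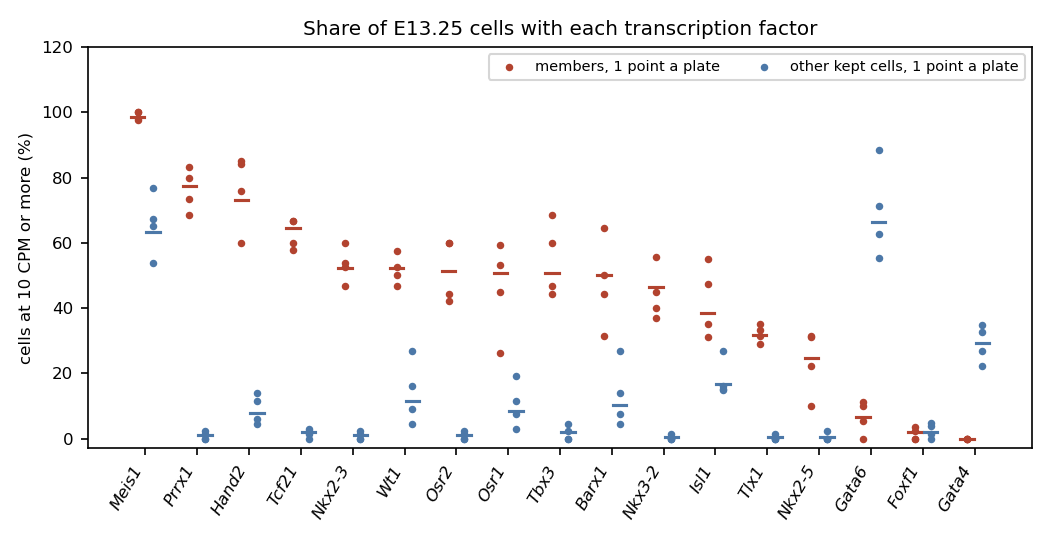
Share of E13.25 cells with at least 10 CPM of each factor, in members and in other kept cells; points are plates and bars the pooled share. Meis1 is near all members, Tlx1 between 28.9 and 35% on each plate, and Gata4 at 0 in members.

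Some of the factors were found in the same cells and others apart, as a description over 138 cells that share 4 plates. Nkx2-3, a factor of spleen and gut mesenchyme, reached 10 CPM in 33 of the 44 cells with Tlx1 (75%) and in 39 of the 94 without it (41.5%), with the first share higher on 4 of 4 plates. Nkx2-5 was in 34.1% of cells with Tlx1 and 20.2% of those without, again higher on 4 of 4 plates. Isl1, a LIM factor known from the dorsal pancreatic mesenchyme, was in 9 of the 44 cells with Tlx1 (20.5%) and 44 of the 94 without (46.8%), and the first share was higher on none of the 4 plates. Barx1 was in 34.1% and 57.4% of them, with the first share higher on 1 of 4 plates. Barx1 and Isl1 went together: Isl1 was in 38 of 69 cells with Barx1 (55.1%) and 15 of 69 without (21.7%), higher on 4 of 4 plates. Hoxa5 was in 66% of cells with Isl1 and 35.3% of those without, also on 4 of 4 plates. These genes were singled out after their values were seen. Over 46 positional and contractile genes the mean within-plate Spearman correlation exceeded 0.3 in size for 17 of 1035 pairs, with a median size of 0.069. Tagln and Tpm1 had the highest, 0.51, and Tlx1 and Nkx2-3 had 0.32. Tagln shares 67.9% of its exon bases with other genes, so its count is less certain.

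Of 54 ligands and secreted modulators, 44 reached 10 CPM, 15 were higher in members and 1, Sema3c, was lower (median 1.51). Ptn (pleiotrophin) was at 2107, 2421, 2658 and 2624 CPM in members and 285 to 509.5 CPM in the others (2.71 ± 0.38), and Igf2 at 1764, 1756, 2253 and 1909 CPM against 442 to 757 CPM (1.84 ± 0.45); Igf2 shares 64.5% of its exon bases with other genes, so its count is less certain. Igf1, another insulin-like growth factor, was at 796, 618, 778 and 504 CPM against 9.97 to 158 CPM (3.45 ± 1.5). Wnt5a, a ligand of the planar polarity pathway, was at 279.7, 281, 177 and 299 CPM against 2.72 to 15.6 CPM (4.98 ± 0.76) and reached 10 CPM in 79.7% of members. The axon guidance ligand Slit2 was at 349 to 662 CPM against 9.85 to 55.3 CPM (4.33 ± 1.65), and the Wnt antagonist Sfrp1 at 748 to 1227 CPM against 31 to 167 CPM (3.67 ± 1.22). Hgf was at 41.7 to 123 CPM in members against 0.405 to 1.17 CPM, while its receptor gene Met was at 0.0814 to 0.572 CPM in members against 13.16 to 57.7 CPM in the other cells. Fgf10, the mesenchymal ligand best known for driving epithelial progenitors, was low: 14.3, 12.9, 0.0382 and 7.4 CPM, with 10 CPM reached in 9 of 138 members (6.52%, exact binomial interval 3.03 to 12%). Fgf7 stayed below 10 CPM in all 4 plates (1.83 to 9.4 CPM).

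Of 36 receptor genes, 33 reached 10 CPM, 10 were higher and 3 lower (median 0.74). The higher genes were Pdgfra, Pdgfrb, Fgfr1, Tgfbr3, Ror1, Igf2r, Notch2, Ednra, Ddr2 and Itga8. Pdgfrb was at 277 to 424 CPM against 6.11 to 20.8 CPM (4.78 ± 1.05), Ddr2, a collagen receptor, at 187 to 379 against 2.14 to 33 CPM (4.90 ± 1.29), and Igf2r, which clears IGF2, at 521, 597, 572 and 586 against 104 to 115 CPM (2.36 ± 0.07). Fgfr3, Met and Nrp2 were lower; Nrp2 changed sign with the comparison cells, and against cells with Col3a1 under 300 CPM it was higher in members (1.34). Among 9 Hedgehog pathway genes, 4 reached 10 CPM: Gli2 (2.77 ± 1.31) and Gli3 (3.41 ± 0.51) were higher, Hhip was lower (-3.69 ± 0.40), and Ptch1 was at 16 to 27.6 CPM against 31.2 to 43.8 CPM, not called. Of 16 retinoic acid genes, 13 reached the level, Rdh10, which makes retinal (311 to 478 against 14.8 to 37.5 CPM), Cyp26b1, which breaks retinoic acid down (6.03 to 36.2 against 0.0152 to 0.304 CPM), and Rxra were higher, and Rbp4 was lower.

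Of 22 contractile and mural genes 18 reached 10 CPM, and 12 were higher in members with none lower (median 2.62). Acta2, smooth muscle actin, was at 265, 465, 231 and 238 CPM against 1.07, 4.05, 13.6 and 14.7 CPM (5.36 ± 1.63), yet reached 10 CPM in 33.3% of members, at a median of 600 CPM in those cells. Des (desmin) was in 77.5% of members and Rgs5 in 84.1%, whereas Myh11, of mature smooth muscle, stayed at 0.0662 to 2.9 CPM. Of 9 pericyte and smooth muscle markers, 6 were higher (Rgs5, Cspg4, Abcc9, Pdgfrb, Acta2 and Des), with summed levels of 1481 to 2018 CPM in members and 71.1 to 227 CPM in the others.

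Of 14 imprinted growth genes 13 reached 10 CPM, 6 were higher and none was lower (median 1.35). Plagl1, an imprinted zinc finger factor, was at 2992, 3105, 3603 and 3106 CPM against 248, 297, 129 and 73.5 CPM (4.29 ± 0.96), and Cdkn1c, an inhibitor of the cell cycle, at 2672, 4090.3, 4299 and 4851 against 434 to 900.4 CPM (2.59 ± 0.30). Cdkn1c shares 30.65% of its exon bases with other genes, so its count is less certain. H19 was at 4002 to 5500 CPM against 1712 to 2510.4 CPM and missed the 2-fold limit on at least 1 plate. No gene of 41 S-phase or 52 G2/M genes was 2-fold different in every plate (medians -0.42 and 0.17). Mki67 was at 194, 139, 369.6 and 147 CPM in members and 37.6 to 247 CPM in the others; it reached 10 CPM in 24.6% of members and 41.1% of other cells, and after thinning in 34.8% and 46.5%. Shares and summed levels of Mki67 differ in direction, and no order is read from them. Of 20 immediate early genes, which respond to stimulation and to cell handling, 5 were higher (Fosb, Jund, Klf2, Klf4 and Socs3) and Ier3 was lower. Jund shares 52.6% of its exon bases with other genes, so its count is less certain. Fos was at 669 to 1641 CPM in members and 633 to 946 CPM in the others and was not called.

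Among 4911 genes with a mean of at least 50 CPM in members, those that varied most between members of the same plate, relative to genes of similar level, were headed by Slc34a2, a phosphate transporter. Its level ran from 6.91 to 177324 CPM, with a median of 13265 CPM and a within-plate SD of 3.04 on the log2 scale against 0.99 for similar genes. Its summed level in members was 2342, 14887, 4014 and 41459 CPM by plate, with a mean of 9762 CPM in the other cells (log2 difference 0.36), and it was called neither higher nor lower. Whether these reads come from Slc34a2 transcripts was not tested. Igf1 came next, from 0 to 5659 CPM with a median of 227 CPM and 10 CPM reached in 70.3% of members. The immediate early genes Ccn1, Fos, Egr1 and Jun were in the 20, as were Id1, Id2 and Id3, targets of BMP signalling, with Id3 at 738, 491, 434 and 42.4 CPM by plate, lowest on plate 4. The others were the matrix and secreted genes Smoc2, Col6a2, Tgfbi, Cxcl12 and Mfap4, the cytoskeletal genes Acta2, Cnn2, Gsn and Lmna, and Capn6 and Ccnd2. Tgfbi, a matrix protein induced by TGF-beta, ran from 0 to 5595 CPM with a median of 1303 CPM.

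The cells nearest to the members by the rule were the 19 E13.25 cells with Upk3b, compared on plates 1 to 3, which held 6 each; this comparison was added after the data were seen and carries no test. Of 12840 genes, 1041 were at least 2-fold higher in members in each plate (8.11%) and 561 lower (4.37%). Col3a1 and Col1a1 were not called (0.02 ± 0.38 and 0.57 ± 0.87). Pdgfra separated the classes, at 364, 386 and 250.2 CPM in members and 0.383, 0.993 and 0 CPM in the cells with Upk3b (7.87 ± 0.24). Rgs5 (8.01 ± 0.25), Nkx3-2 (5.71 ± 0.13), Tlx1 (5.52 ± 0.40) and Wnt5a (3.18 ± 0.40) were higher in members too. On the other side, Wt1 was at 144, 151 and 162 CPM against 636, 457 and 584 CPM (-1.85 ± 0.27), and Aldh1a2, which makes retinoic acid, at 11.8, 24.9 and 0.343 CPM against 724, 638 and 811 CPM (-6.56 ± 2.39). Gata4, Gata6, Bmp4, Fgf9 and the matrix gene Dcn (-2.14 ± 0.92) were also higher in the cells with Upk3b. Barx1 was at 138, 93.7 and 99.5 against 239, 275 and 184 CPM and was not called. Of 19 immediate early genes, 13 were higher in members, Jun among them (1.66 ± 0.44). Of 41 S-phase genes 8 were higher and none lower. Collagen and Hox genes were less distinct here than against all other cells. Of 16 collagen genes 3 were higher and 4 lower (median 0.18). Of 14 Hox genes Hoxa4 was higher, and Hoxa7, Hoxc4 and Hoxc5 were lower (median 0.39). Of 35 positional factors 15 were higher and 5 lower (median 1.66). With 6 cells a plate in the smaller class, 1 or 2 cells can set a gene's level there.

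The member rule applied to E15.25 gave 45 of 261 kept cells (22, 10 and 13 by plate). The Epcam limit left out 35 E15.25 cells with Col3a1 at 300 CPM or more (3, 16 and 16 by plate), against 4 at E13.25. The same rule may thus not take like cells at both ages, and the part of this in the age results was not tested. Ages were compared on plate sums, 4 plates against 3. The test was edgeR's quasi-likelihood F test with Benjamini-Hochberg adjustment over 15141 genes. At an adjusted p under 0.05, 82 genes were higher at E15.25 (0.542%) and 30 were lower (0.198%); by DESeq2 the counts were 700 and 730. The E15.25 plates come from tip and trunk parts, which the E13.25 labels do not separate, and 46 to 49% of reads were unaligned there against 26 to 34% on E13.25 plates 1 to 3 and 47% on plate 4. Age, dissection and library set cannot be told apart. The extract protocol given for the E15.25 samples speaks of E13.25 embryos, while their titles and age labels say E15.25; the titles and age labels were followed here. The test counts the tip and trunk plates of bud 2 as separate samples. With these summed as 1 sample, an alternative added after the data were seen, 31 genes were higher and 5 lower by edgeR, of which 27 and 3 were among the 82 and 30. Of the 30 genes named by rule 9 still passed (Hhatl, Pcdh20, Kank4, Dcn, Lgals9, Lox, Hmga2, Sox11 and Tgfbi), as did Postn, Bgn, Sparc, Col6a1, Col6a2 and Col4a1.

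Several matrix genes were higher in the E15.25 plates, where age cannot be told apart from dissection and library set. Of 32 matrix genes 9 passed the test, all higher (Dcn, Lox, Ogn, Lama4, Postn, Bgn, Lamb1, Sparc and Nid1), with a list median of 1.48 against -0.04 over all genes; of 16 collagen genes 4 passed, all higher (Col6a1, Col6a2, Col4a1 and the rule gene Col3a1, which is not counted as a finding). Dcn, the proteoglycan decorin, was at 232, 279, 143 and 96 CPM at E13.25 and 1426, 2295 and 2472 CPM at E15.25 (log2 change 3.76, SE 0.39, adjusted p = 0.011 by edgeR). Lox, a lysyl oxidase, was at 78.5, 100.3, 43.8 and 36.7 CPM and then 410.1, 742 and 517 CPM (log2 change 3.40, SE 0.40, adjusted p = 0.016, edgeR). Postn, periostin, was at 213, 240.5, 119 and 118 CPM and then 735, 932 and 886 CPM (log2 change 2.59, SE 0.29, adjusted p = 0.014, edgeR). In each of these genes the plates of the ages did not overlap, which is no added support, since the genes were picked by the test. The collagen VI genes were at 412 to 657 and then 1414 to 2023 CPM (Col6a1, log2 change 2.0, SE 0.22, adjusted p = 0.013, edgeR) and at 400.5 to 756 and then 2038 to 2270.4 CPM (Col6a2, log2 change 2.11, SE 0.22, adjusted p = 0.011, edgeR). Col6a6 was at 0.611 to 9.26 and then 124 to 299.6 CPM. Among the other genes named by rule as higher, Pde1a, Lgals9, Irf1, Ano1 and Thbs2 had log2 changes of 2.87 (Thbs2) to 5.41 (Pde1a). Hhatl, Pcdh20, Kank4 and Gbp2 had under 1 CPM on every E13.25 plate and uneven levels at E15.25. On tip 1, tip 2 and trunk 2, Hhatl was at 9.97, 1.25 and 33 CPM and Pcdh20 at 33, 24.5 and 10.4 CPM. Kank4 was at 24.7, 4.11 and 116 CPM there, and Gbp2 at 24.9, 12.1 and 3.44 CPM. The imprinted genes Mest (1673 to 3052 and then 3595 to 5197 CPM) and Ndn (337 to 699.9 and then 1204 to 1889 CPM) passed as well.

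By size of change, genes lower at E15.25 were led by transcripts with 0 to 2 reads on the E15.25 plates. Snx31, a sorting nexin, was at 30.1, 5.41, 52.2 and 27.3 CPM at E13.25 and had 0 reads on the E15.25 plates, at least 371-fold lower against a floor of 3 reads over the group, and the transcript Gm26724 was at least 168-fold lower. Pcp4l1 had 1 read at E15.25 (ratio 2197, 95% counting interval 394 to 86798), Pdgfc 2 reads (ratio 1241, 343 to 10248) and Ephb1 2 reads (ratio 575, 159 to 4746). Adjusted p by edgeR was 0.0488 for Snx31, 0.0486 for Gm26724, 0.0159 for Pcp4l1, 0.0296 for Pdgfc and 0.0491 for Ephb1. None of these was among the named genes that still passed with the plates of bud 2 summed. Hmga2, a chromatin protein of embryonic growth, was at 216, 268, 407 and 435 CPM and then 11.1, 5.27 and 1.15 CPM (log2 change -5.59, SE 0.75, adjusted p = 0.027, edgeR). Nnat, neuronatin, was at 518, 897, 1325 and 1721 CPM and then 45.3, 50.2 and 70.1 CPM (log2 change -4.08, SE 0.48, adjusted p = 0.016, edgeR). Sox11 was at 296, 229, 303 and 275 CPM and then 53.1, 39.3 and 39.6 CPM (log2 change -2.39, SE 0.22, adjusted p = 0.011, edgeR), and Tgfbi at 1143 to 1946 and then 193 to 350.2 CPM (log2 change -2.31, SE 0.25, adjusted p = 0.013, edgeR). Elavl2, Mpped2, Ndnf, Sema6a, Kif26b and Tmem127 were the others named by rule. Of 34 tested positional factors Meis2 (305 to 366 and then 103 to 109.8 CPM) and Sox11 passed, both lower. Other factors did not pass: Tlx1 was at 40.7 to 61.4 and then 5.63 to 19.5 CPM (log2 change -1.51, adjusted p = 0.2 by edgeR), Nkx3-2 at 52.8 to 58.7 and then 2.52 to 27.5 CPM (log2 change -1.66, adjusted p = 0.28, edgeR), and Wnt5a at 177 to 299 and then 45 to 141 CPM (log2 change -1.44, adjusted p = 0.13, edgeR). No listed ligand, receptor, contractile or cell cycle gene passed by edgeR; a p that misses the threshold does not show that they were alike.

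**Figure D5:**
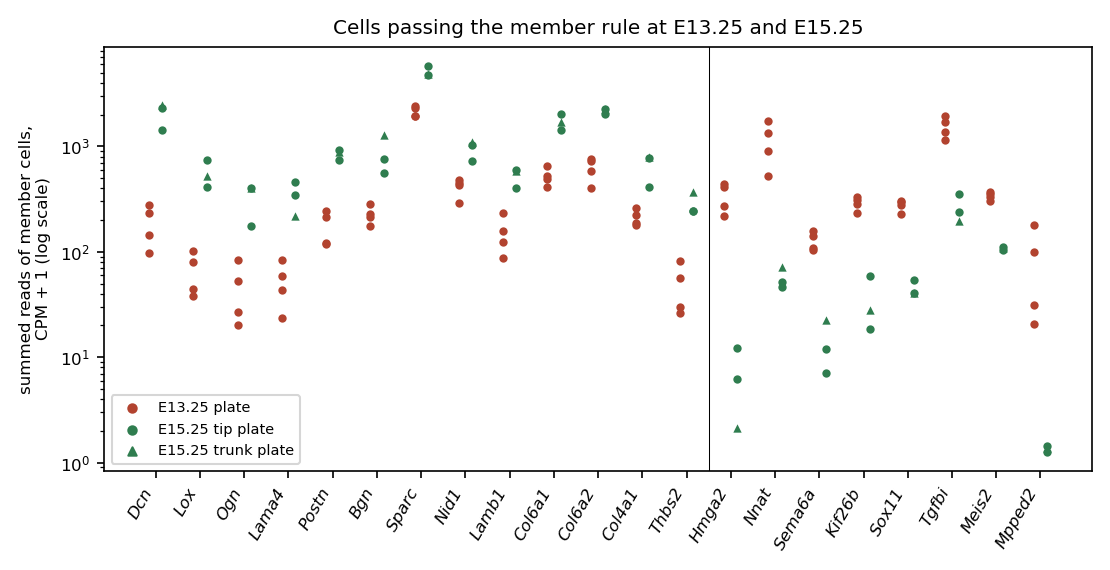
Summed CPM + 1 (log y axis) of cells passing the member rule, 1 point a plate, for matrix genes that were higher (left of the line) and genes that were lower (right) at E15.25. The E13.25 and E15.25 plates do not overlap in any gene shown. The genes were picked from those that passed the test, so this is no added support.

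Of 18 tested digestive enzyme genes, 10 also passed as higher in E15.25 members, and their levels were a small share of those in the other cells. Pnliprp1 was at 1.41 to 6.72 CPM and then 466 to 552 CPM in members, while its mean in the other cells was 1804 and then 22759.7 CPM. At E15.25 the 10 genes stood in members at 1.8 to 2.35% of their level in the other cells, and at E13.25 Pnliprp1 stood at 0.236% and Ctrb1 at 0.229%. Of the 82 genes higher at E15.25, 21 were higher in the other cells than in members at that age, as were 4 of the 30 lower genes at E13.25; by the rule none of these is named as a member gene. By contrast Dcn stood in E15.25 members at 2064 CPM and in the other cells at 222 CPM. Erythroid markers summed to 13.4 to 298 CPM in E13.25 members and 203 to 3925 CPM in E15.25 members. The part of other cells' RNA in these results was not tested.

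The number of age calls depended on single plates. With 1 plate left out, between 0 and 33 genes were higher and between 0 and 12 lower by edgeR; without the E15.25 trunk plate none passed (2475 at an unadjusted p under 0.05), without E13.25 plate 3 only 1 did, and E13.25 plate 4 alone, the plate with a like unaligned share, against E15.25 gave none (1353 unadjusted). That last fit has 1 sample at E13.25, which is assumed to vary like the 3 E15.25 plates, and its count of 0 says nothing about stability. With 1 plate left out, between 0 and 9 of the 30 genes named by rule still passed by edgeR. All 30 kept their direction, but they were chosen for large changes in these same plates, so this is no separate support.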

How the data were processed

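Per the submitters' processing notes the authors used GSNAP and HTSeq 0.5.3p3 on the mm10 build, and deposited counts of reads per gene for 672 wells, not normalized, with 92 spike-in rows. Gene symbols were matched for 45143 of 46078 gene identifiers. Reads were not deduplicated by molecular identifiers, so intervals cover counting error only. CPM used the sum over mouse genes. The members and gene lists were chosen with earlier results of these data known. Reads were summed per plate and class; log2 differences used a pseudocount of 1 CPM and genes with 10 CPM in a class on a plate. Named genes were the 25 higher (at least 50 CPM in members) and 10 lower (at least 50 CPM in the other cells) with the largest differences; across ages, up to 15 a direction with an adjusted p under 0.05, at least 10 CPM and a member level not under that of the other cells, plus listed genes; a few of these are not reported here. Ages were tested with edgeR 4.0.16 (R 4.3.3; TMM, quasi-likelihood) and, as an alternative, DESeq2 1.42.0; the fits were tested on simulated data, where the age fit found a minority of the changed genes. Plate 4 is titled as mouse 2 and plates 1 to 3 carry no mouse number, and whether these 3 share a litter is not given in the sources used here; p-values measure the spread between these plates. Exon lengths came from GENCODE's annotation of the same build.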

Additional observations from a re-analysis of the deposited data

Results flagged for a closer look

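In 60 sets of 4 E13.25 plates (the member share, 4 quality medians and the named genes) the gap of 1 plate to its nearest neighbour exceeded Dixon's 95% value in 4 sets, where chance gives about 1 in 20. Median reads per spike-in read in members were 28.98 on plate 1, against 2.18 to 3.50 on the other plates. Htra3 was at 296 CPM in members of plate 2 and 116 to 121 CPM on the others. Frem1 was at 113 CPM on plate 4 and 231 to 249 CPM on the others. Hhatl had 1 read, 0.0136 CPM, on plate 2 and 0 on the others, far below its E15.25 levels.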

How the results depend on the processing

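Member counts ran from 129 to 139 under the other limits tried. The counts of 748 higher and 1127 lower genes changed by no more than 1.5 times under other pseudocounts, levels, limits and comparison cells, with these exceptions. A plate (replicate) block in edgeR, with a fitted 2-fold difference in place of 2-fold in every plate, gave 2211 higher and 2932 lower genes, and with no replicate block 2348 and 2444; both include all 748 and 1127. Against the cells with Upk3b, on plates 1 to 3, 561 were lower. The genes called also differed there. Only a minority of the 748 were called higher against those cells, and only a minority of the 1127 were called lower. A like count of higher genes in that comparison is thus not the same set of genes. Against the Epcam cells alone, Hbb-bs, Hbb-bt, Hba-a1, Hba-a2, Alas2 and Nrp2 turned to 0.23, 0.24, 0.28, 0.14, 0.42 and 1.07 (log2), and against cells with Col3a1 under 300 CPM Nrp2, Upk1b and Upk3b turned to 1.34, 0.00286 and 0.0862. Across ages, DESeq2 gave 700 higher and 730 lower genes (49% higher, against 73.2% by edgeR), cells scaled to 1 total gave 135 and 55, and E13.25 plate 4 alone against E15.25 gave 0 and 0 (1 sample at E13.25, so this says nothing about stability), and the plates of bud 2 summed as 1 sample gave 31 and 5. With each plate left out in turn, counts were 0 to 33 higher and 0 to 12 lower; without any 1 E13.25 plate the class comparison gave 906 to 929 higher and 1291 to 1396 lower. The cause was not tested. Of 11 shares of members with a gene, all 11 left their binomial interval when 1 read counted as present, 5 at 50 CPM and 2 (Acta2 and Mki67) after thinning. Beside these, 413 values of single genes across ages fell short of the threshold and 99 passed it under an alternative, none with a called direction turned. No paired analysis was possible across ages because the pancreas numbers at E13.25 and the bud numbers at E15.25 belong to samples of different ages. Depth limits genes of a few reads a plate, and 10 to 22 cells a plate limit the E15.25 sums.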
